A study of Mus musculus with 12 samples.

Results

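The p53 target genes described here were Cdkn1a, Mdm2, Ccng1, Perp, Btg2, Trp53inp1, Sesn1, Sesn2 and Phlda3, which are 9 of 10 genes named by the selection rule and 9 of 18784 genes measured. The tenth, Trp53, which encodes p53 itself, had no probe set under that symbol in the probe annotation and was not analysed here. The genes were selected, with results of these arrays known, as a group described as lower in knockdown stem cells and higher in knockdown neural progenitors. The knockdown values below are therefore given as a description with no test. Each gene had 1 probe set.

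RNA was measured on 12 Affymetrix mouse arrays, 3 in each of 4 groups. Neural progenitor cells (NPC) carried an shRNA against Jarid1b or a scrambled shRNA, and embryonic stem cells (ESC) of the feeder-independent line E14TG2a.4, grown with LIF, carried the same constructs. Per the labels, ESC were transduced with lentivirus and selected with puromycin, NPC were made by a published protocol, and a single Jarid1b construct is named. Separate cultures are not stated for the replicates, so the spread behind every p-value is that of the 12 arrays and may be technical. Jarid1b, listed as Kdm5b, encodes a histone H3 lysine 4 demethylase.

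The transcription factor p53 is kept scarce by Mdm2, a ubiquitin ligase that marks it for degradation and whose own gene p53 activates, which closes a feedback loop. DNA damage and other stresses stabilise p53, which then activates genes that halt the cell cycle, repair DNA, alter metabolism or bring about cell death. Mouse ESC contain abundant p53 and are known for a weak arrest at the G1 checkpoint. The array measures RNA and not p53 protein, and a fall in RNA per cell cannot be told apart from fewer cells that express a gene.

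Sequences before the gene starts are shown because p53 binds DNA at a well-known paired motif. RefSeq windows of 250 bases before to 50 bases after a start (build GRCm38.p6) were at hand for 7 of the 9 genes, 9 windows in all, and not for Perp or Trp53inp1. The p53 decamer consensus, which reads the same on both strands, was found in 4 of the 9 windows and in 8.36% of all 32851 windows. Paired decamers with at most 13 bases between them were found in 1 of the 9 windows, and in 0.0731% of all windows. That window precedes the upstream of the annotated starts of Cdkn1a, on the plus strand at chr17:29090729-29091028. Its decamers, in capitals, begin at positions -73 and -51 from the start and lie 12 bases apart. Only exact matches to the consensus were counted. The stretch tgacatgttc, which directly follows the decamer at -51 with no bases between, departs from the consensus at its first base alone. It was therefore left in lower case, and the pair in capitals need not be the pair that p53 binds.
Cdkn1a: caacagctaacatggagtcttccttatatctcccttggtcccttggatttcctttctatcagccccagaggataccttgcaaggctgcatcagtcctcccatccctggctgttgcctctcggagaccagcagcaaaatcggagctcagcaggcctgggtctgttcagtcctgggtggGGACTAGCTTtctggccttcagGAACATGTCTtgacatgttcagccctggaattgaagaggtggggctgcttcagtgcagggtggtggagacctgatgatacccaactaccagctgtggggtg

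Single decamers were found in windows of Mdm2 (minus strand, chr10:117710709-117711008), Ccng1 (minus strand, chr11:40755237-40755536) and Sesn1 (plus strand, chr10:41887189-41887488). They are shown with 10 bases on each side, the decamer in capitals, for comparison with the Cdkn1a pair. They begin at positions -186, -185 and -173 from the start, in that order. No decamer was found in the windows of Btg2, Sesn2 and Phlda3, in the other Sesn1 window or in the other Cdkn1a window. A match is a string of letters and not evidence of binding.
Mdm2: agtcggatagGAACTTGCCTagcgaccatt
Ccng1: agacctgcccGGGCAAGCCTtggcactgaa
Sesn1: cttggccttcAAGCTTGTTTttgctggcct

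Across genes, replicate arrays had correlations of 0.992 to 0.997, and array medians lay between 7.696 and 7.792 on the log2 scale. All 18 pluripotency markers were lower in every NPC array than in every ESC array, and all 13 neural progenitor markers were higher. Among the strongest, Dppa5a averaged 13.75 and 13.70 in knockdown and control ESC, and Vim 13.49 and 13.60 in knockdown and control NPC. Kdm5b was 10.47 ± 0.081 in knockdown NPC and 11.23 ± 0.078 in control NPC, and 10.68 ± 0.20 in knockdown ESC and 12.41 ± 0.14 in control ESC (SD, n = 3 each). In limma's test over all genes it fell in both states (adjusted p = 0.00524 in NPC and adjusted p = 1.82e-05 in ESC), and was 1.70-fold lower in NPC and 3.31-fold lower in ESC.

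In knockdown NPC all 9 genes had a higher mean than in control NPC, while in knockdown ESC 7 had a lower mean and 2, Cdkn1a and Sesn1, a higher one. The description of the group thus holds for 7 of the 9 genes in both states. The median difference was 0.41 in NPC and -0.17 in ESC on the log2 scale, where the median of all genes was 0.0037 and 0.017. In NPC the 3 knockdown arrays lay above the 3 control arrays for 7 of 9 genes, as they did for 8.30% of all genes, and below them for none (5.91% of all genes). In ESC they lay below the control arrays for 6 of 9 genes, as they did for 13.6% of all genes, and above them for 1 (10.6% of all genes). Ccng1, Perp, Btg2, Trp53inp1 and Phlda3 were separated in both states, higher in NPC and lower in ESC, a pattern met by 1.16% of all genes. Because the genes were selected on these values, nothing is read from the counts.

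**Figure D1:**
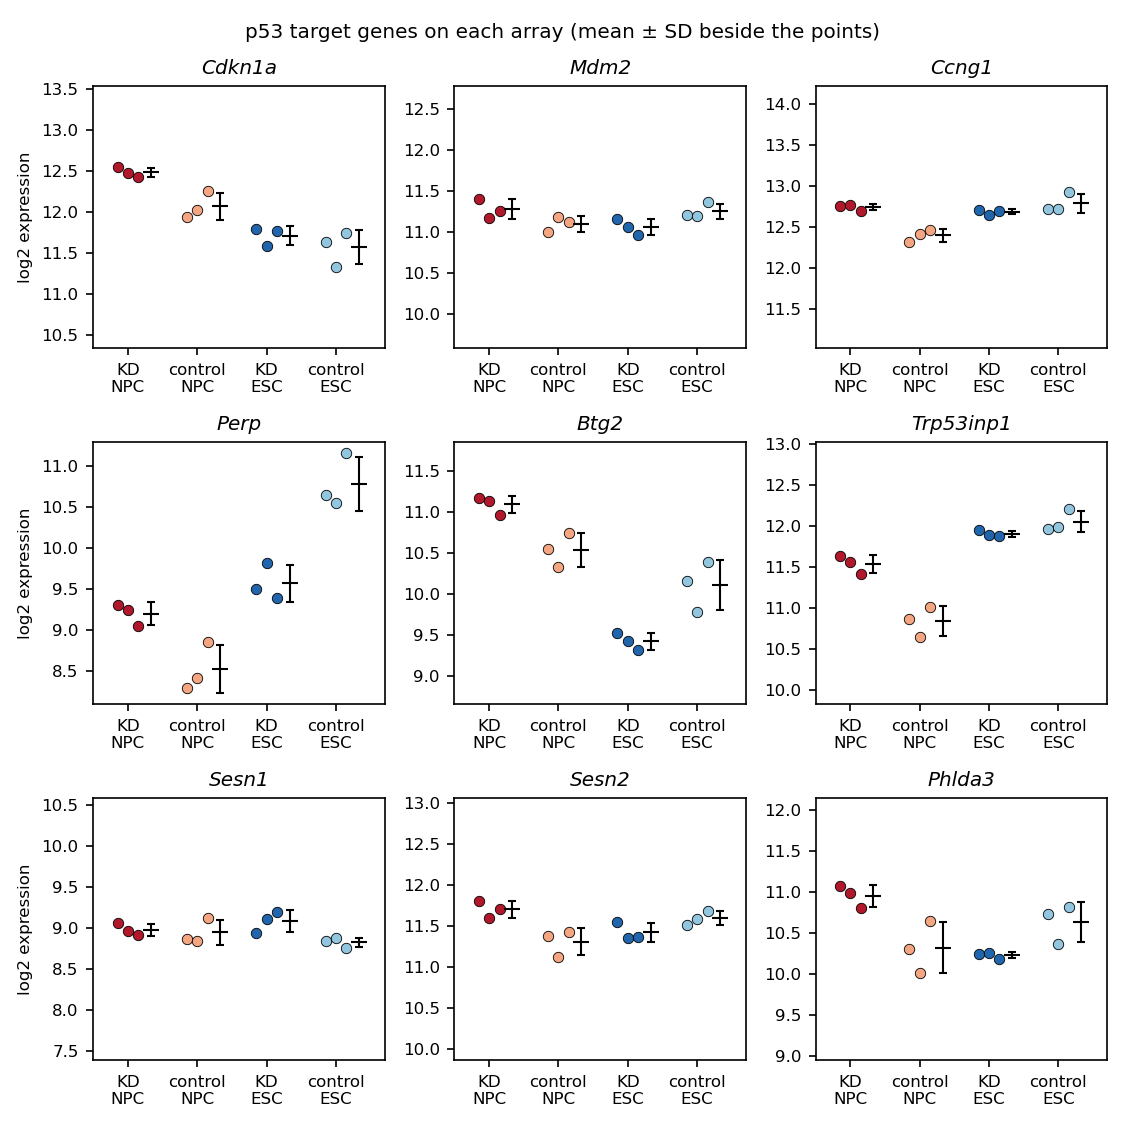
Log2 expression of each of the 9 genes (vertical axis, the same span in every panel) in the 3 arrays of knockdown (KD) and control NPC and of knockdown and control ESC, with the group mean ± SD beside the points. In NPC the knockdown means lie above the control means in all 9 panels, and in ESC they lie below in 7 of 9.

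Among the genes that halt the cell cycle, Cdkn1a encodes p21, an inhibitor of cyclin-dependent kinases. It measured 12.54, 12.47 and 12.43 in knockdown NPC, against 11.93, 12.02 and 12.25 in control NPC, on the log2 scale. It measured 11.79, 11.58 and 11.77 in knockdown ESC, against 11.64, 11.33 and 11.74 in control ESC. The NPC groups were separate and the ESC groups overlapped. The difference was 0.41 ± 0.12 in NPC and 0.14 ± 0.12 in ESC (SE). Of the genes described here, only Cdkn1a and Sesn1 had the higher mean in knockdown ESC.

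Btg2 encodes an antiproliferative protein that acts in mRNA decay and marks neural progenitors about to produce neurons. It measured 11.18, 11.14 and 10.97 in knockdown NPC, against 10.55, 10.33 and 10.75 in control NPC. It measured 9.53, 9.43 and 9.31 in knockdown ESC, against 10.16, 9.79 and 10.40 in control ESC. Both pairs of groups were separate, with knockdown arrays above control arrays in NPC and below them in ESC. The differences were 0.55 ± 0.15 in NPC and -0.69 ± 0.15 in ESC (SE), or 1.47-fold higher and 1.61-fold lower.

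Ccng1 encodes cyclin G1, which recruits a phosphatase to Mdm2 and so takes part in the feedback on p53. It measured 12.76, 12.77 and 12.70 in knockdown NPC, against 12.32, 12.41 and 12.47 in control NPC. It measured 12.71, 12.65 and 12.69 in knockdown ESC, against 12.72, 12.72 and 12.93 in control ESC. The ESC groups were separate by a narrow margin and the difference was -0.10 ± 0.083 (SE), while in NPC it was 0.34 ± 0.083 (SE).

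Mdm2, the negative regulator of p53, measured 11.41, 11.17 and 11.26 in knockdown NPC, against 10.999, 11.19 and 11.13 in control NPC. It measured 11.16, 11.07 and 10.96 in knockdown ESC, against 11.22, 11.20 and 11.36 in control ESC. The NPC groups overlapped, and in ESC all knockdown arrays lay below the control arrays. The differences, 0.18 ± 0.095 in NPC and -0.20 ± 0.095 in ESC (SE), were similar in size and opposite in sign.

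Among the genes tied to cell death, Perp encodes a membrane protein of desmosomes that p53 induces during apoptosis. It measured 9.30, 9.24 and 9.05 in knockdown NPC, against 8.29, 8.42 and 8.85 in control NPC. It measured 9.50, 9.82 and 9.39 in knockdown ESC, against 10.65, 10.55 and 11.16 in control ESC. No array of a knockdown group overlapped its control group. The ESC difference, -1.22 ± 0.18 (SE) or 2.33-fold lower, was the largest in size of any of the 9 genes in either state, and the NPC difference was 0.68 ± 0.18 (SE).

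Trp53inp1 encodes a stress-induced nuclear protein that promotes p53 activity and autophagy. It measured 11.64, 11.57 and 11.41 in knockdown NPC, against 10.87, 10.65 and 11.01 in control NPC. It measured 11.95, 11.89 and 11.88 in knockdown ESC, against 11.97, 11.99 and 12.21 in control ESC. Its NPC difference of 0.69 ± 0.11 was the largest of the 9 in that state, or 1.62-fold higher, and its ESC difference was -0.15 ± 0.11 (SE). The ESC groups were separate by a narrow margin.

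Phlda3 encodes a small lipid-binding protein that competes with the kinase Akt for the membrane and so limits survival signalling. It measured 11.08, 10.99 and 10.81 in knockdown NPC, against 10.30, 10.02 and 10.64 in control NPC. It measured 10.25, 10.25 and 10.19 in knockdown ESC, against 10.73, 10.36 and 10.82 in control ESC. Both pairs were separate, and the differences were 0.63 ± 0.15 in NPC and -0.41 ± 0.15 in ESC (SE). The control SD (0.31 in NPC and 0.24 in ESC) exceeded the knockdown SD (0.14 and 0.036) in both states.

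The sestrins are stress proteins that restrain mTORC1 signalling. Sesn2 measured 11.81, 11.60 and 11.70 in knockdown NPC, against 11.38, 11.12 and 11.43 in control NPC. It measured 11.55, 11.35 and 11.37 in knockdown ESC, against 11.52, 11.59 and 11.68 in control ESC. It was separate in NPC (0.39 ± 0.10, SE) and overlapped in ESC (-0.17 ± 0.10, SE).

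Sesn1 went the other way in ESC. It measured 9.06, 8.96 and 8.92 in knockdown NPC, against 8.87, 8.85 and 9.12 in control NPC. It measured 8.94, 9.12 and 9.20 in knockdown ESC, against 8.84, 8.88 and 8.76 in control ESC. All knockdown ESC arrays lay above the control ESC arrays (0.26 ± 0.099, SE), and the NPC groups overlapped (0.035 ± 0.099, SE). Sesn3, another sestrin gene that is not among the 9 and is known as a target of FoxO factors, measured 9.97, 9.98 and 9.999 in knockdown NPC, against 10.58, 10.41 and 10.72 in control NPC. In ESC it measured 9.35, 9.14 and 9.11 in knockdown cells, against 9.61, 9.67 and 9.74 in control cells. It was tested and fell in both states (-0.59 ± 0.097 in NPC, limma adjusted p = 0.0112, and -0.47 ± 0.097 in ESC, limma adjusted p = 0.0160, SE). The NPC call was lost without knockdown NPC replicate 1 (adjusted p = 0.0528) or 2 (0.0510), and the ESC call without control ESC replicate 3 (0.0895), knockdown ESC replicate 2 (0.0621) or knockdown ESC replicate 3 (0.0790).

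**Figure D2:**
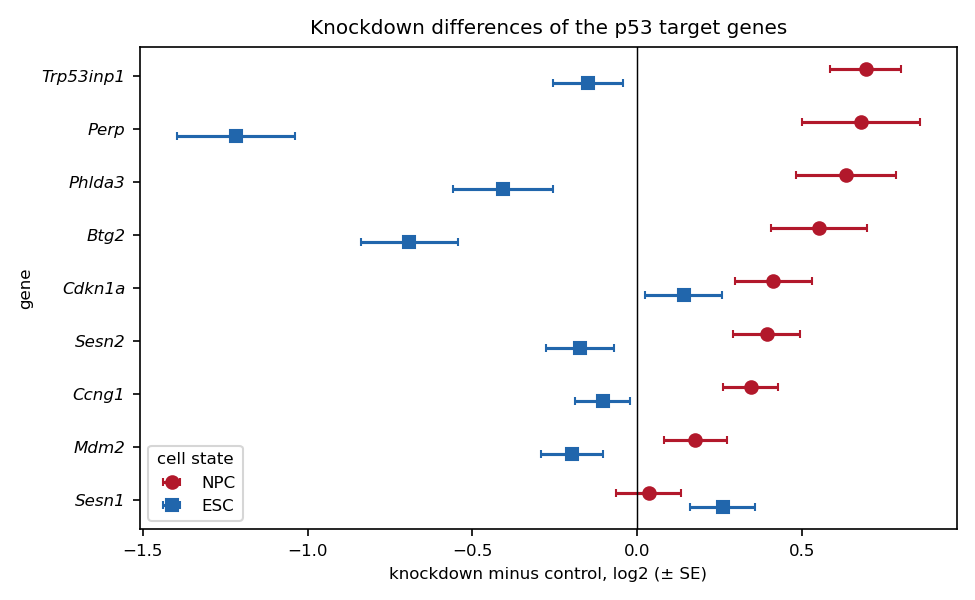
Knockdown minus control difference on the log2 scale (horizontal axis, ± limma's SE, 3 arrays against 3) for each gene, with circles for NPC and squares for ESC. The NPC values run from 0.035 for Sesn1 to 0.69 for Trp53inp1, and the ESC values from -1.22 for Perp to 0.26 for Sesn1.

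The difference of the knockdown differences, NPC minus ESC, was positive for 8 of the 9 genes and ran from 0.27 ± 0.17 for Cdkn1a to 1.90 ± 0.25 for Perp (SE). Btg2 (1.24 ± 0.21) and Phlda3 (1.04 ± 0.21) came next to Perp, and Sesn1 had the only negative value (-0.22 ± 0.14, SE). With group means removed, the deviations of the 12 arrays correlated above 0 for all 28 pairs of genes that leave out Sesn1, from 0.231 to 0.921 (Btg2 with Phlda3). The 8 pairs with Sesn1 gave -0.193 to 0.401. These correlations share arrays and normalization and are a description. Replicate 3 was the highest array for 8 of 9 genes in control ESC and for 8 of 9 in control NPC, and replicate 1 for 8 of 9 in knockdown NPC. Without control NPC replicate 3 the median NPC difference was 0.50, and without control ESC replicate 3 the median ESC difference was -0.13.

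The comparison of NPC with ESC averaged over both constructs was not used to select the genes. In this balanced design it is uncorrelated with both knockdown contrasts if arrays vary equally and independently, so it was tested. Same-numbered control NPC and control ESC arrays correlated at 0.266 to 0.334, so the independence of this comparison from the selection is not assured. Of the 9 genes, 2 were higher in NPC (Btg2 and Cdkn1a) and 3 were lower (Perp, Trp53inp1 and Ccng1), by limma at an adjusted p under 0.05 over all genes. Among all genes 58.4% were called, 27.3% higher and 31.1% lower. Every NPC array lay above every ESC array for 1 of the 9 (19.6% of all genes) and below for 2 (19.9% of all genes).

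Btg2 rose by 1.05 ± 0.10 (SE, 2.07-fold, limma adjusted p = 9.63e-07), and its 6 NPC arrays, at 10.33 to 11.18, overlapped its 6 ESC arrays, at 9.31 to 10.40. Cdkn1a rose by 0.64 ± 0.083 (SE, 1.55-fold, limma adjusted p = 1.52e-05), with all 6 NPC arrays above all 6 ESC arrays. Perp changed by -1.32 ± 0.13 (SE, 2.49-fold lower, limma adjusted p = 7.52e-07) and Trp53inp1 by -0.79 ± 0.075 (SE, 1.73-fold lower, limma adjusted p = 7.04e-07), and every NPC array of either gene lay below every ESC array. Ccng1 changed by -0.17 ± 0.059 (SE, limma adjusted p = 0.0256). That small fall lost its call under quantile normalization (adjusted p = 0.0642) and without control ESC replicate 3 (0.0693), knockdown ESC replicate 1 (0.0527), control NPC replicate 1 (0.0639) or knockdown NPC replicate 3 (0.0608).

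The remaining 4 genes did not pass the test. Phlda3 differed by 0.20 (95% interval -0.028 to 0.44), Mdm2 by 0.034 (-0.11 to 0.18), Sesn1 by 0.0085 (-0.14 to 0.16) and Sesn2 by -0.0033 (-0.16 to 0.15), with limma adjusted p of 0.122, 0.689, 0.927 and 0.973. Phlda3 became called without control NPC replicate 2 (adjusted p = 0.0263). The signs of the Mdm2, Sesn1 and Sesn2 values changed under some settings.

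Within a construct the NPC minus ESC values shared arrays with the selection and were not tested. Perp differed by -0.37 in knockdown cells and -2.27 in control cells, and Btg2 by 1.67 in knockdown cells and 0.43 in control cells. Trp53inp1 differed by -0.37 in knockdown cells and -1.21 in control cells, and Cdkn1a by 0.77 in knockdown cells and 0.50 in control cells. For Phlda3 (0.72 and -0.32), Sesn2 (0.28 and -0.29), Mdm2 (0.22 and -0.15) and Ccng1 (0.056 and -0.39) the values in knockdown and control cells had opposite signs.

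**Figure D3:**
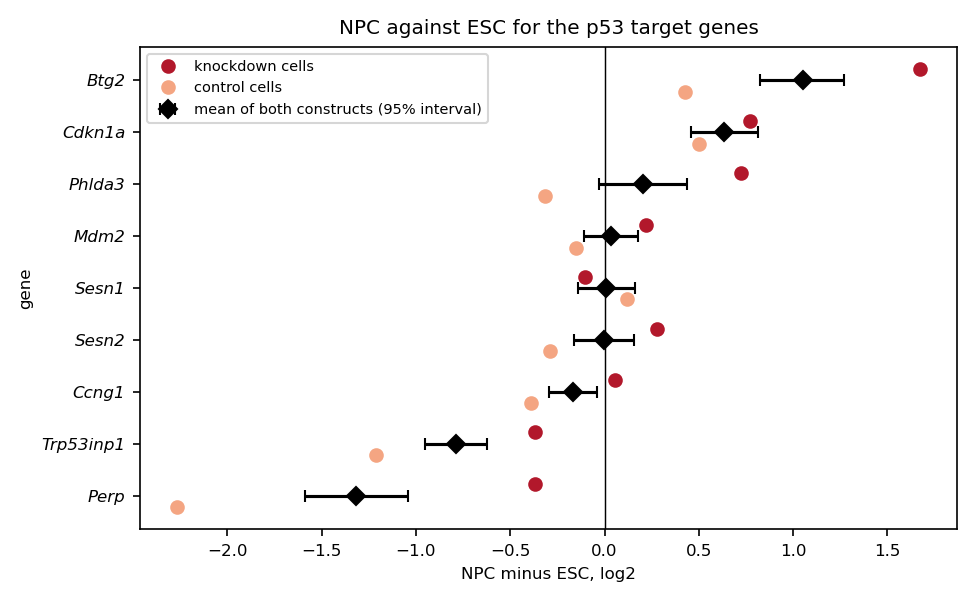
NPC minus ESC on the log2 scale (horizontal axis) for each gene. Diamonds give the mean of both constructs with its 95% interval, and circles the values in knockdown and in control cells. The intervals of Btg2 and Cdkn1a lie above 0, those of Perp, Trp53inp1 and Ccng1 lie below 0, and the other 4 include 0.

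Pluripotency markers moved with the knockdown in NPC. Their mean level was 7.44 to 8.32 in knockdown NPC and 6.65 to 7.14 in control NPC, against 11.97 to 11.99 in knockdown ESC and 11.88 to 11.95 in control ESC. Of the 18, 8 rose in knockdown NPC by limma, where 0.820% of all genes were called higher. Among the 9 p53 target genes, the knockdown NPC mean lay between the means of control NPC and control ESC for 3 (Perp, Trp53inp1 and Ccng1) and above both for 6 (Cdkn1a, Btg2, Phlda3, Sesn2, Mdm2 and Sesn1). The margin was narrow for Mdm2 (11.28 against 11.26 in control ESC) and Sesn1 (8.98 against 8.95 in control NPC). With knockdown ESC in place of control ESC, Ccng1 lay above both (12.74 against 12.69) and Sesn1 lay between (8.98 against 9.09). The other genes kept their place. For Cdkn1a and Btg2 every knockdown NPC array lay above all 6 ESC arrays (12.43 or higher against 11.79 or lower for Cdkn1a, and 10.97 or higher against 10.40 or lower for Btg2). The part of cells that express pluripotency markers in the differences of the p53 target genes was not tested.

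Markers of mesoderm and endothelium (8 measured of 9) averaged 5.92 to 6.23 in knockdown NPC and 6.59 to 7.22 in control NPC. Of these 2 fell, where 0.213% of all genes were called lower. They were Cdh5 and Emcn, which are named after their values were seen. The 12 measured cell cycle genes averaged 11.33 to 11.40 in knockdown NPC and 11.33 to 11.43 in control NPC, and the 13 neural progenitor markers 10.90 to 11.02 and 10.81 to 11.08. Neuron markers (10) averaged 9.96 to 10.02 in knockdown NPC and 10.16 to 10.44 in control NPC. In knockdown ESC 1.84% of all genes were called higher and 3.37% lower. The neural progenitor markers averaged 8.30 to 8.40 in knockdown ESC and 8.56 to 8.64 in control ESC, and 1 rose and 4 fell. The neuron markers averaged 8.01 to 8.30 in knockdown ESC and 8.33 to 8.52 in control ESC, and 4 fell. The part of these cell types in the differences of the p53 target genes was not tested. The mean levels of the glial, endoderm, fibroblast and mesoderm and endothelium lists overlapped between knockdown and control in ESC. Single members of these lists were called in knockdown ESC, and are named after their values were seen. The endoderm marker Dab2 (-0.99, limma adjusted p = 0.0152) and the fibroblast marker Tagln (-1.89, limma adjusted p = 0.0187) fell. Pecam1, from the mesoderm and endothelium list, rose (0.86, limma adjusted p = 0.0187). Within that list Pecam1 and Gata1 were lower in every NPC array than in every ESC array, as the pluripotency markers were, while Cdh5 and Emcn were higher. The cell cycle gene Cdc20 fell in knockdown ESC as well (-0.40, limma adjusted p = 0.0228). In NPC the fibroblast list averaged 7.53 to 7.77 in knockdown and 7.96 to 8.34 in control cells.

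**Figure D4:**
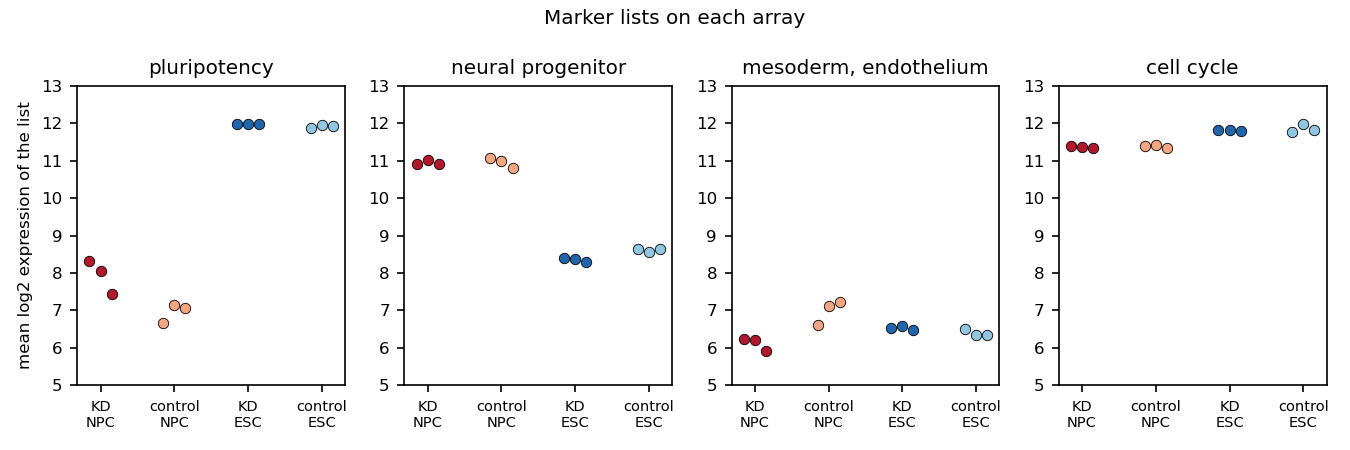
Mean log2 expression (vertical axis) of 4 marker lists in each array of knockdown (KD) and control NPC and of knockdown and control ESC. The pluripotency list is at 7.44 to 8.32 in knockdown NPC and 6.65 to 7.14 in control NPC, and cell cycle genes overlap between knockdown and control in both states.

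Other genes of the p53 pathway were taken from a list of 99 regulators, relatives and targets, of which 87 were measured. The list was chosen with earlier results of these data known, and its theme is that of the selected genes. Its shares of called genes in the knockdown contrasts are therefore not independent of the selection. In knockdown NPC 3 rose and 1 fell (3.45% and 1.15%), where 1.03% of all genes were called, 0.820% higher and 0.213% lower. Slc19a2, a thiamine transporter gene, rose by 0.57 ± 0.11 (limma adjusted p = 0.0277), and Ndrg1, a stress and hypoxia response gene, by 0.62 ± 0.13 (limma adjusted p = 0.0480). Aldh4a1, which encodes an enzyme of proline breakdown in mitochondria, rose by 0.55 ± 0.12 (SE, limma adjusted p = 0.0431). Sesn3 was the gene that fell. With the replicate number as a block, Aldh4a1 (adjusted p = 0.0543) and Ndrg1 (adjusted p = 0.0743) lost the call. With only the 6 NPC arrays in the fit, and without knockdown NPC replicate 1 or 2, the number called was 0. It was 1 without control NPC replicate 1 or 2, and 2 without control ESC replicate 2 or any knockdown ESC array, which enter the shared spread.

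In knockdown ESC 2 of the 87 rose and 7 fell (2.30% and 8.05%), where 5.21% of all genes were called, 1.84% higher and 3.37% lower. Igfbp3, a binding protein gene for insulin-like growth factors, measured 8.89, 9.08 and 8.63 in knockdown ESC, against 10.20, 9.90 and 10.60 in control ESC. It fell by 1.37 on the log2 scale (SE 0.21, limma adjusted p = 0.00477). Bcl2l11, which encodes the death protein Bim, measured 9.20, 9.07 and 9.05 in knockdown ESC, against 9.64, 9.56 and 9.73 in control ESC (-0.54 ± 0.092, SE, limma adjusted p = 0.00781).

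The kinase gene Plk2 (-0.93 ± 0.17), Sesn3, the genome stability gene Zfp365 (-0.80 ± 0.17), the matrix protein gene Thbs1 (-1.95 ± 0.42) and the arrest gene Rprm (-0.42 ± 0.10, SE) fell as well, with limma adjusted p from 0.00985 to 0.0347. The genes that rose were Hipk2, a kinase that phosphorylates p53 (0.62 ± 0.16, limma adjusted p = 0.0408), and Zfp385a, a zinc finger partner of p53 (0.38 ± 0.093, SE, limma adjusted p = 0.0329). Rprm lost its call with the replicate number as a block (adjusted p = 0.0553). Igfbp3 and Bcl2l11 kept their calls in all 12 fits without a single array, and each of the other 7 lost its call in 2 to 8 of them. The count of 9 ranged down to 2, reached without control replicate 3 or knockdown replicate 3, and was 4 without knockdown replicate 2 and 5 without knockdown replicate 1.

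By role, the medians of the apoptosis targets were 0.25 in NPC and -0.16 in ESC (15 measured of 16), those of the metabolism and redox targets 0.29 and -0.15 (11 of 15), and those of the regulators -0.054 and 0.012 (23 of 24). Cell cycle targets had medians of 0.030 in NPC and -0.20 in ESC (12 of 12), and repair targets 0.12 and 0.11 (7 of 10). For targets of other roles the medians were 0.21 in NPC and -0.19 in ESC (17 of 20), and for the p53 relatives 0.0082 and -0.073 (2 of 2). Among the targets of other roles, 2 were called higher in NPC, and 1 was called higher and 3 lower in ESC. The medians of all 87 were 0.13 in NPC and -0.11 in ESC.

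The difference between the states was tested for each of the 87 genes. The knockdown effect was higher in NPC than in ESC for 4 of them (4.60%, where 1.42% of all genes were called, 1.18% higher and 0.245% lower) and lower for 0 by limma. At an unadjusted limma p under 0.05, 31 were higher and 5 lower, where 9.73% of all genes were higher and 5.58% lower. Together these are 41.4% of the 87, where 15.3% of all genes had such a p. Because the p53 theme was selected on the same contrasts and arrays, these shares are a description and not an independent test. The 4 genes called by adjusted p were Zfp365 (1.32 ± 0.23, adjusted p = 0.0239), Eda2r (1.09 ± 0.21, adjusted p = 0.0346), Slc19a2 (0.79 ± 0.16, adjusted p = 0.0346) and Gpx1 (1.08 ± 0.23, adjusted p = 0.0437). With the replicate number as a block, Gpx1 (adjusted p = 0.0633) and Slc19a2 (adjusted p = 0.0516) lost the call, while Zfp365 and Eda2r kept it. Eda2r encodes a receptor of the tumour necrosis factor receptor family and Gpx1 a glutathione peroxidase. Without control ESC replicate 3, knockdown ESC replicate 3, knockdown NPC replicate 1 or knockdown NPC replicate 2 the number called was 0. It was 1 without knockdown ESC replicate 2, control NPC replicate 1 or control NPC replicate 2, 10 without control ESC replicate 1 and 9 without control NPC replicate 3.

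Averaged over constructs, 27 of the 87 were higher in NPC and 41 lower (31.0% and 47.1%, against 27.3% and 31.1% of all genes). Among those with the smallest p in their role were Plk3 (1.91 ± 0.073) and Hipk2 (1.92 ± 0.11), both higher, and Chek2, a checkpoint kinase gene (-2.49 ± 0.12), Bid (-1.46 ± 0.084) and Tigar (-1.12 ± 0.060, SE), all lower. Mdm4, a partner of Mdm2, was chosen after its values were seen and was lower in NPC too (-0.68 ± 0.090, SE, limma adjusted p = 1.76e-05).

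**Figure D5:**
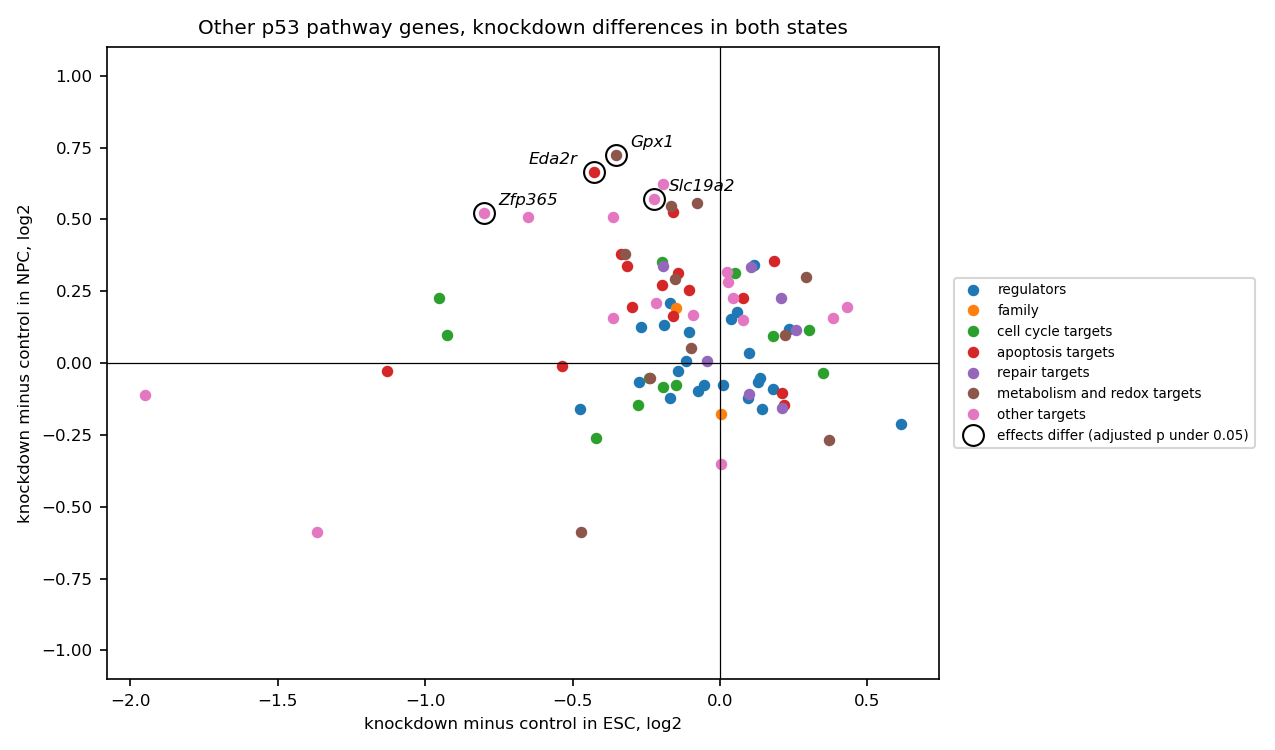
Knockdown minus control on the log2 scale in ESC (horizontal axis) and NPC (vertical axis) for the 87 other p53 pathway genes, coloured by role. Rings mark the 4 genes whose knockdown effects differed between the states, and all 4 lie at negative values in ESC and positive values in NPC. Within a state, limma called only Zfp365 in ESC and Slc19a2 in NPC among these 4.

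Across the 12 arrays, the gene whose values most resembled the mean of the 9 genes was Eda2r (Pearson r = 0.952), followed by Rnf167 (0.899), Exosc3 (0.886), Zfp36l3 (0.876) and Plekha2 (0.872). Eda2r measured 10.46, 10.56 and 10.38 in knockdown NPC, against 9.81, 9.44 and 10.16 in control NPC. It measured 10.16, 10.09 and 10.002 in knockdown ESC, against 10.43, 10.40 and 10.71 in control ESC. Both pairs of groups were separate, in the directions seen for Phlda3 and Btg2. These likenesses were ranked over all genes on the same arrays and are a description.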

How the data were processed

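The authors deposited log2 values, 1 for each probe set in each array. Affy, RMA and limma are named per the submitters' processing notes; their versions, and a genome build, were not given in the sources used here. In general RMA subtracts background, equalises arrays and summarises probes, which compresses changes near the floor. No detection calls were at hand. Of 21212 probe sets, 18786 had 1 gene symbol, 6 several and 2420 none; where a gene had several probe sets, that of highest mean was taken. Unnamed probe sets stayed in the fit.

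In R 4.3.3, limma 3.58.1 estimated the 4 group means from the 12 arrays together (lmFit, contrasts.fit, eBayes; 8 residual and 4.81 prior degrees of freedom). P-values were adjusted by Benjamini-Hochberg over 18784 genes, two-sided, and called under 0.05. The fit was tested on simulated data. Calls were recomputed with quantile normalization, array weights, a replicate block, median centring, a trended robust prior, low genes removed, probe set means, the 6 arrays of a contrast, a stricter threshold and each array left out. The number of arrays limits the precision. Members and lists were chosen with earlier results of these data known. Named genes were the 9 members, Kdm5b, up to 4 called genes with the smallest p per role list, of which some are printed, the 5 nearest in pattern and up to 3 top markers per list. Same-numbered arrays correlated above 0.1 in all 3 pairs for control NPC with control ESC (0.266 to 0.334), which enter the NPC against ESC comparison and the difference of knockdown effects, and not for knockdown NPC with knockdown ESC (-0.0336 to 0.19) or for knockdown with control in either state. For control ESC with knockdown NPC all 3 pairs were negative (-0.247 to -0.122). A pairing by replicate number is thus not established, the labels give no reason for one, and blocked values are printed where they change a call.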

Additional observations from a re-analysis of the deposited data

Results flagged for a closer look

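Among Kdm5b and the 87 other p53 pathway genes, 5 had knockdown effects that differed between NPC and ESC by the test of the difference itself, as did 267 of all 18784 genes. Each is given as the NPC effect minus the ESC effect on the log2 scale. Zfp365 differed by 1.32, with knockdown effects of 0.52 in NPC and -0.80 in ESC. Eda2r differed by 1.09 (0.66 in NPC and -0.43 in ESC), Gpx1 by 1.08 (0.72 and -0.35) and Slc19a2 by 0.79 (0.57 and -0.22). Within a state, limma called Zfp365 in ESC alone, Slc19a2 in NPC alone, and Eda2r and Gpx1 in neither. Kdm5b, the targeted gene, differed by 0.96, being lowered less in NPC (-0.76) than in ESC (-1.73). Leaving out knockdown NPC replicate 2 gave Kdm5b a limma adjusted p of 0.0512, and leaving out control ESC replicate 3 gave 0.0591. Kdm5b kept its call in 10 of the 12 fits without a single array. Zfp365 kept it in 7, Eda2r in 5, and Gpx1 and Slc19a2 in 3 each. Gpx1 and Slc19a2 also lost the call with the replicate number as a block. The p53 theme was selected on the same contrasts and arrays, so the calls of the p53 pathway genes are not an independent test.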

How the results depend on the processing

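The members called for NPC against ESC numbered 5, and 4 to 6 without single arrays. Settings other than leaving out an array moved the other counts as follows. For the knockdown in NPC the count of 4 was 2 with the replicate block and 0 from the 6 NPC arrays or at a threshold of 0.01. In ESC the count of 9 was 28 with array weights (5 higher, 23 lower), 5 from the 6 ESC arrays and 3 at 0.01. For the difference the count of 4 was 2 with the replicate block, 10 with the filter on low values (mean of at least 7, 11658 genes), 7 with an intensity trend and robust prior, 22 with array weights, 9 with quantile normalization and 0 at 0.01. Without single arrays the counts ranged from 0 to 6 in NPC, 2 to 13 in ESC and 0 to 10 for the difference. The replicate block moved no other count of calls by over 1.5 times. Values near 0 changed sign, the cause of which was not tested. The NPC against ESC value of Mdm2 was -0.0090 with array weights. That of Sesn1 was -0.0015 with array weights, -0.020 with median centring, -0.066 with quantile normalization and between -0.035 and 0.037 without single arrays (-0.0076, -0.028, -0.035 and -0.012 where negative). That of Sesn2 was 0.022 with quantile normalization and between -0.033 and 0.044 without single arrays (0.018, 0.029, 0.044 and 0.022 where positive). The members' knockdown differences kept their sign under all 19 settings, except Sesn1 in NPC, which changed sign in 3. The median difference without single arrays was 0.38 to 0.50 in NPC and -0.24 to -0.13 in ESC.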
